A study of Homo sapiens with 8 samples.

Results

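The effect of a STAT6 siRNA on the transcripts of Hep3B cells was measured by RNA-seq in 4 of the 8 libraries of the series. The 4 libraries were those of the siRNA table: control si numbers 1 and 2 and STAT6 si numbers 1 and 2. Each STAT6 si library was set against the control si library with the same number, and genes were described by whether they moved the same way within both numbers. Hep3B is an established human hepatocellular carcinoma (HCC) cell line. The control cells (genotype label WT) received a scramble siRNA, the STAT6 si cells (genotype label STAT6 knockdown) received an siRNA against STAT6, and all were grown in MEM with 10% fetal bovine serum. The siRNA dose and the time after transfection are not given in the labels or methods. RNA was extracted with TRIzol, and libraries were made with a stranded mRNA kit.

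STAT6 is a transcription factor that waits in the cytoplasm until interleukin-4 (IL-4) or interleukin-13 binds its receptor. JAK kinases on the receptor then phosphorylate STAT6, which dimerizes, enters the nucleus and binds palindromic sites in DNA. The study's interest was the mitochondrial folate enzyme MTHFD2. It oxidizes folate-bound one-carbon units, a step before another enzyme releases formate for nucleotide synthesis, and makes NADH and NADPH on the way. The question put to these libraries was which transcripts, folate genes among them, differ when STAT6 is reduced.

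The libraries numbered 1 and the libraries numbered 2 stood apart from each other more than the siRNAs did. The library number was called for 9656 of 13554 genes tested (71.2%), and the median absolute log2 difference between the numbers was 0.765 for the control si and 0.999 for the STAT6 si. The median absolute log2 difference between the siRNAs was 0.346 within number 1 and 0.170 within number 2. Library totals ran from 16266282 to 22037721 expected counts, that is, read counts estimated per transcript. The number was a planned term of the model, which left 1 residual degree of freedom. The test took the spread wholly from the trend over all 13554 genes, and no gene's own spread entered its p-value. The labels do not say that the libraries came from separate cultures, and the p-values measure only the spread between these libraries, which may be technical.

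The siRNA difference also moved with the GC content of the transcripts. Across genes, Spearman's rho between GC content and the fitted log2 fold change was 0.588. It was 0.573 within number 1 and 0.330 within number 2, and these points share libraries and base composition. Within number 1 the median log2 difference ran from -0.33 for genes with 42% to 45% GC to 0.54 for genes with 69% to 72% GC. Within number 2 it ran from -0.31 at 33% to 36% GC to 0.11 at 69% to 72% GC. In a second fit, offsets for GC content and transcript length took rho to 0.0227. The log2 fold changes with these offsets are given beside the main ones for some genes and lists. How far GC content accounts for any single gene was not tested.

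**Figure D1:**
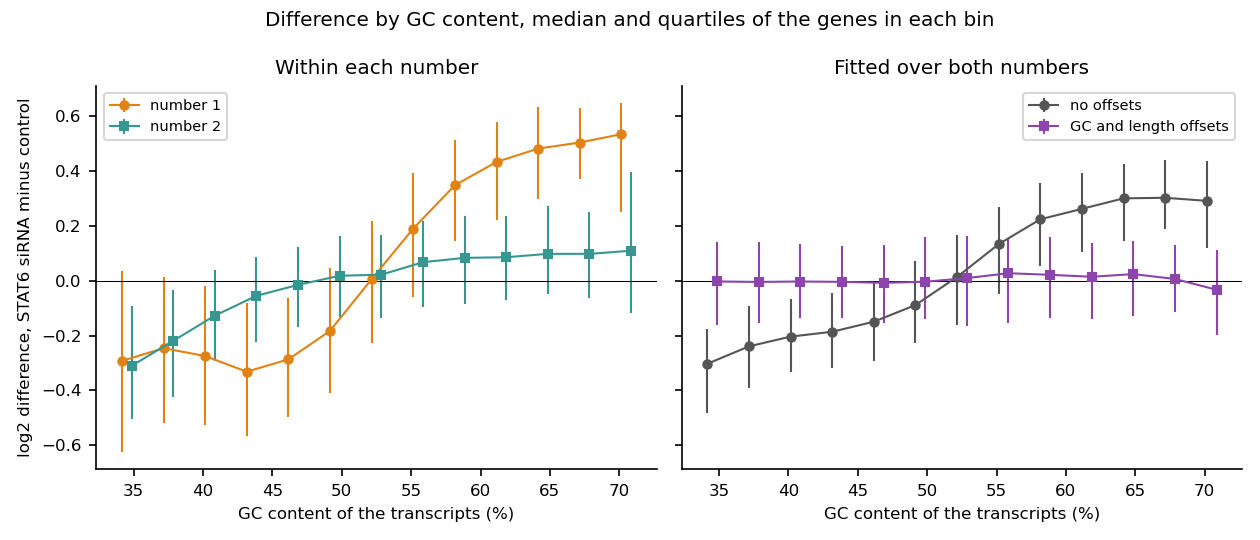
Median log2 difference (STAT6 siRNA minus control siRNA, vertical axis) of the genes in each bin of GC content (percent, horizontal axis), with bars from the lower to the upper quartile; left, within number 1 and within number 2, and right, fitted over both numbers without and with offsets. In number 1 the medians rise from -0.33 at 42% to 45% GC to 0.54 at 69% to 72% GC, and with the offsets they stay close to 0.

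STAT6 itself (chr12:57095405-57111413, hg38, minus strand) fell in both pairs. Its level was 42.5 and 31.4 CPM (read counts scaled to library size with the TMM factors) in control si 1 and 2, and 9.92 and 5.98 CPM in STAT6 si 1 and 2. Both STAT6 si libraries lay below both controls. The log2 fold change was -2.25 (standard error 0.22, edgeR, adjusted p = 4.1e-20), with -2.09 within number 1, -2.37 within number 2 and -2.38 with the offsets. Without the pairing by number the log2 fold change was -2.22 but the adjusted p was 1.00, and no gene was called. Of the 6 STAT6 transcripts listed, the most abundant, NM_003153, had 342 and 441 expected counts in the controls and 79.4 and 58.8 in the STAT6 si libraries. The noncoding NR_033659 had 174 and 91.3 in the controls but 1.49 and 66.3 in STAT6 si 1 and 2, so its share of the remaining STAT6 signal was not alike in both pairs. NAB2, on the other strand, shares 72 bases with the end of STAT6 and had a log2 fold change of 0.47 (edgeR, adjusted p = 0.390).

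Few other genes passed the test. At an adjusted p below 0.05, 62 of 13554 genes were called (0.457%), 27 higher (0.199%) and 35 lower (0.258%) after STAT6 siRNA. An unadjusted p below 0.05 (edgeR) was reached by 1495 of the 13554, the background for the counts of this kind given for gene lists below. All 62 moved the same way within both numbers, which a paired fit favours by its construction. Among all genes tested, 3970 (29.3%) were higher within both numbers, 4428 (32.7%) were lower within both, and 5156 (38.0%) moved in opposite directions. The change was larger within number 1 for 42 of the 62, made up of 14 of the 27 higher and 28 of the 35 lower genes. With median-of-ratios size factors the split turned to 44 higher and 22 lower of 66, or 66.7% higher in place of 43.5%, with the median log2 fold change of all genes at 0.04 in place of -0.04. The 27 higher genes had a median GC content of 60.6% and the 35 lower genes 45.4%, against 49.6% for all genes. With the offsets, 145 genes were called higher (1.07%) and 233 lower (1.72%), and 61 of the 62 were among them. The exception was C1orf233, an uncharacterized gene.

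**Figure D2:**
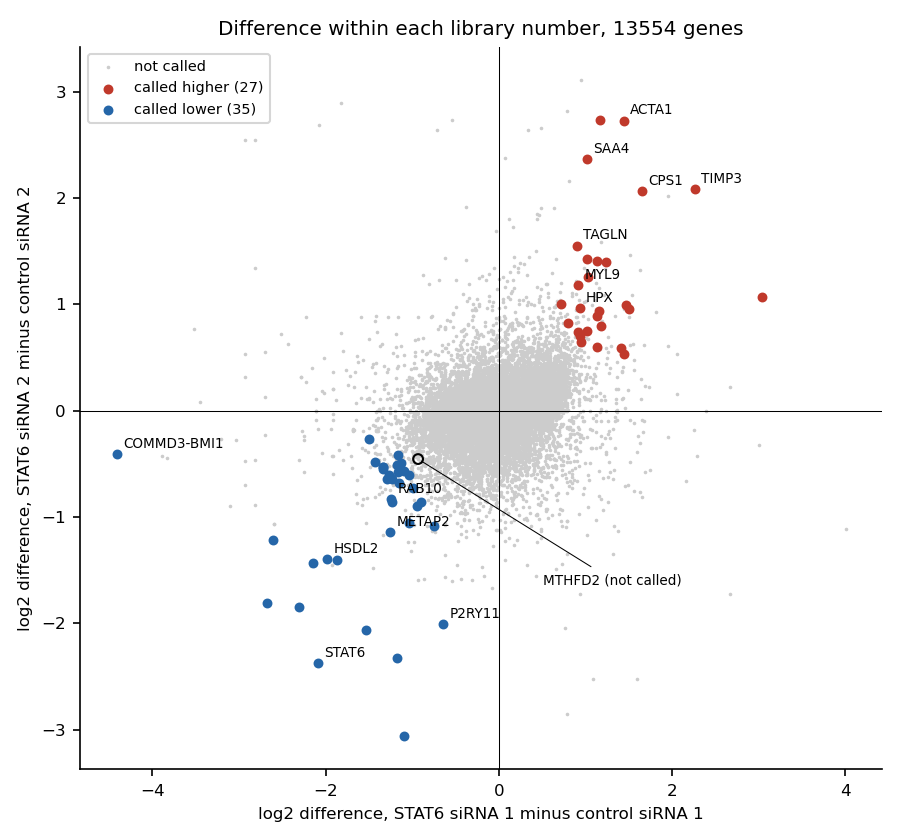
Each point is 1 of the 13554 genes tested: its log2 difference (STAT6 siRNA minus control siRNA) within number 1 on the horizontal axis and within number 2 on the vertical axis. The 27 genes called higher lie in the upper right and the 35 called lower in the lower left, with STAT6 at -2.09 and -2.37, while MTHFD2, at -0.93 and -0.45, was not called.

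The 27 higher genes included TAGLN, MYL9 and ACTA1 of the contractile cytoskeleton. TAGLN (chr11:117199324-117204792), which encodes the actin-binding protein transgelin, had 33.9 and 21.5 CPM in control si 1 and 2 and 63.3 CPM in each STAT6 si library. The STAT6 si libraries lay above both controls, and the fitted log2 difference was 1.23 (edgeR, adjusted p = 1.4e-05, standard error 0.21), 0.90 within number 1, 1.55 within number 2 and 1.00 with the offsets. MYL9 (chr20:36541484-36549823), the regulatory light chain of smooth muscle and nonmuscle myosin, had 52.6 and 33.6 CPM in the controls and 99.3 and 76.3 CPM in the STAT6 si libraries. Its fitted rise was 1.05 on the log2 scale (edgeR, adjusted p = 7.1e-04, standard error 0.21) and 0.82 with the offsets, and again the groups did not overlap. ACTA1 (chr1:229431246-229434096), skeletal muscle alpha-actin, was named after its values were seen, since its mean was 87.5 counts per library. It had 1.64 and 1.33 CPM in the controls and 4.63 and 9.41 CPM in the STAT6 si libraries, a log2 fold change of 2.22 (standard error 0.31, edgeR, adjusted p = 1.9e-09) that was 1.44 within number 1 and 2.73 within number 2. As a list, genes that the transcription factors SRF and YAP are known to drive went both ways. The list holds TAGLN and MYL9 but not ACTA1. Of 24 such genes tested, TAGLN and MYL9 were called (DESeq2 called 2 and limma-voom 3), 8 were higher within both numbers, 9 were lower within both, and the median log2 fold change was 0.01 against -0.04 for all genes. The sign of that median turned without a filter on low counts and with upper-quartile factors. With the offsets, CTGF, ANKRD1 and AJUBA of the same list were called lower, at -0.42, -0.74 and -0.56.

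Genes of plasma proteins and of the liver enzyme CPS1 were also among the higher genes. HPX (chr11:6431038-6441024), which encodes hemopexin, the binder of free heme in blood, had 20.6 and 9.42 CPM in control si 1 and 2 and 39.5 and 18.5 CPM in STAT6 si 1 and 2. The groups overlapped because number 1 was higher throughout, but the log2 difference was nearly the same in each pair, 0.94 and 0.97, with a fitted value of 0.96 (standard error 0.21, edgeR, adjusted p = 0.0041). SERPINA7 (chrX:106033199-106038727), thyroxine-binding globulin, was named after its values were seen. It had 2.996 and 1.87 CPM in the controls and 6.69 and 5.12 CPM in the STAT6 si libraries, which lay above both controls (log2 fold change 1.30, edgeR, adjusted p = 0.00461). CPS1 (chr2:210477682-210679107), the mitochondrial enzyme at the entry of the urea cycle, had 0.961 and 0.533 CPM in the controls and 3.23 and 2.56 CPM in the STAT6 si libraries. Its log2 fold change was 1.99 (standard error 0.40, edgeR, adjusted p = 8.9e-04), with 1.65 within number 1 and 2.07 within number 2. It was the 1 called gene of 10 urea cycle genes tested, whose median was 0.06. Of 37 drug metabolism and transport genes tested, 11 were higher and 13 lower within both numbers. Their median was -0.09 and none was called (edgeR, 1 at an unadjusted p below 0.05, and 0 by DESeq2 or limma-voom). SAA4 (chr11:18231355-18236837), the constitutive serum amyloid A of high-density lipoprotein, rose from 0.565 and 0.444 CPM to 1.25 and 2.72 CPM. Its log2 fold change was 1.98 (standard error 0.47, edgeR, adjusted p = 0.0106), and the difference was 1.02 within number 1 and 2.37 within number 2. The offsets gave 0.84, 1.49, 2.18 and 2.04 for HPX, SERPINA7, CPS1 and SAA4.

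IGFBP4, CD14 and TMPRSS6 were also higher. IGFBP4 (chr17:40443424-40457730), a secreted protein that binds insulin-like growth factors, had 8.42 and 4.89 CPM in the controls and 18.6 and 9.16 CPM in the STAT6 si libraries, all above the controls (log2 fold change 1.03, standard error 0.23, edgeR, adjusted p = 0.00542). CD14 (chr5:140631728-140633701), a co-receptor for bacterial lipopolysaccharide that hepatocytes as well as monocytes make, had 4.41 and 1.29 CPM in the controls and 9.04 and 3.63 CPM in the STAT6 si libraries. The groups overlapped across the numbers, but both pairs differed by more than 1 on the log2 scale, by 1.02 and 1.42 (fitted 1.23, edgeR, adjusted p = 0.00964). TMPRSS6 (chr22:37065436-37109563), the membrane protease that lowers hepcidin, had 29.4 and 14.1 CPM in the controls and 64.4 and 21.4 CPM in the STAT6 si libraries. Its log2 difference was 1.13 within number 1 and 0.60 within number 2 (fitted 0.88, edgeR, adjusted p = 0.0108). The offsets gave 0.77, 1.02 and 0.62 for IGFBP4, CD14 and TMPRSS6. TIMP3, a secreted inhibitor of matrix metalloproteinases named after its values were seen, had 1 and 7 counts in the controls and 9 and 40 in the STAT6 si libraries, and its log2 fold change of 2.60 (edgeR, adjusted p = 0.0122) rests on these few counts.

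The remaining higher genes named by rank were NUDT18, NEU4, RASA4B, NPAS1, GLTPD2, C15orf38-AP3S2, PYCRL, C1orf233, JMJD4 and C2orf54. Their log2 fold changes ran from 0.80 for C2orf54 to 1.15 for NUDT18. NUDT18, a nudix hydrolase, had 9.95 and 3.02 CPM in the controls and 20.4 and 7.39 CPM in the STAT6 si libraries (edgeR, adjusted p = 0.00101). PYCRL, an enzyme of proline synthesis, had 20.6 and 8.09 CPM in the controls and 39.4 and 13.2 CPM in the STAT6 si libraries (log2 fold change 0.83, edgeR, adjusted p = 0.0258). The offsets gave 0.84 for NUDT18 and 0.56 for PYCRL. In NPAS1, a bHLH-PAS transcription factor, the groups did not overlap, with 4.75 and 2.62 CPM in the controls and 10.7 and 5.12 CPM in the STAT6 si libraries.

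**Figure D3:**
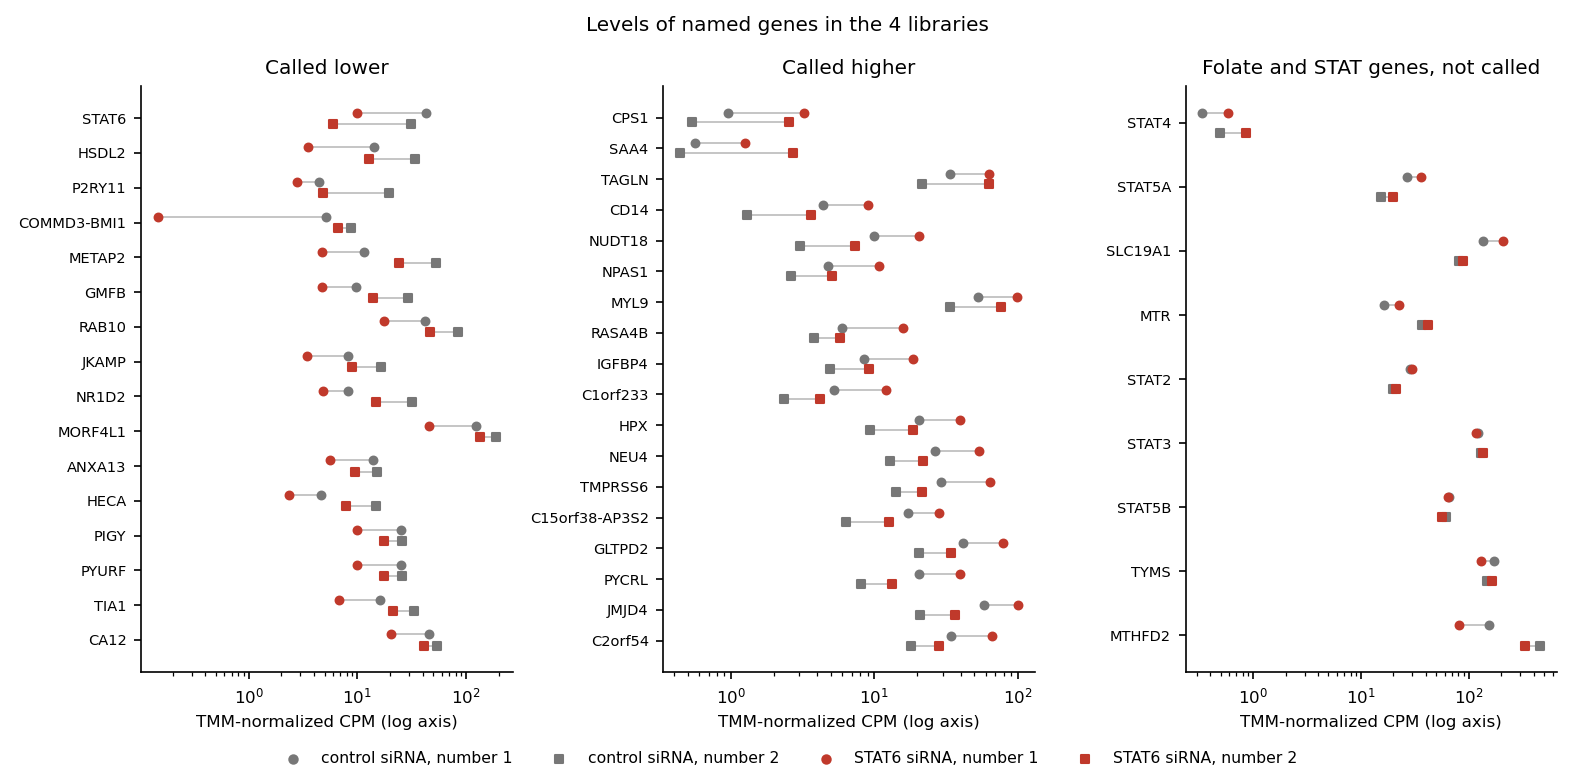
Level of named genes in the 4 libraries as TMM-normalized CPM on a log axis, with circles for number 1, squares for number 2, grey for control siRNA, red for STAT6 siRNA and a line joining the pair of each number. Left, genes called lower, such as STAT6 (42.5 and 31.4 CPM in the controls, 9.92 and 5.98 CPM after STAT6 siRNA). Centre, genes called higher. Right, folate and STAT genes that were not called. In many genes the numbers lie further apart than the siRNAs do.

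The sequences upstream of 3 higher genes with a motif and of MTHFD2 are shown because they are where a factor such as STAT6 or SRF could bind. The bases are from RefSeq (GRCh38.p14), read 5′ to 3′ on the strand of the gene, end at the last base before the transcripts listed for the gene, and have the motif in capitals. They lie at chr1:229434097-229434344 (minus strand) for ACTA1, chr11:6441025-6441237 (minus) for HPX, chr17:40443200-40443423 (plus) for IGFBP4 and chr2:74198365-74198562 (plus) for MTHFD2.
ACTA1: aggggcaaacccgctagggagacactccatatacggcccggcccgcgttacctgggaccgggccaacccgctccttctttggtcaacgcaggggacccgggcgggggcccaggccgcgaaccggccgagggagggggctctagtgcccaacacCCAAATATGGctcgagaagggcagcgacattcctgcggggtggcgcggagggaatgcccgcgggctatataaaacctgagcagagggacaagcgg
HPX: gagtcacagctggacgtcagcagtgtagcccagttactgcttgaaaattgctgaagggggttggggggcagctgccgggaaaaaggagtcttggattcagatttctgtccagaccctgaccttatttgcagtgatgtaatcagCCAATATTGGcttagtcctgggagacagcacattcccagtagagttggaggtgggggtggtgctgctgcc
IGFBP4: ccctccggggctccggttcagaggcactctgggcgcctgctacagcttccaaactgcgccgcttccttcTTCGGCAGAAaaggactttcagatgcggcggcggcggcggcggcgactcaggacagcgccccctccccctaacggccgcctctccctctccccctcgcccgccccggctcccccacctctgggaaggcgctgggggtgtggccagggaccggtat
MTHFD2: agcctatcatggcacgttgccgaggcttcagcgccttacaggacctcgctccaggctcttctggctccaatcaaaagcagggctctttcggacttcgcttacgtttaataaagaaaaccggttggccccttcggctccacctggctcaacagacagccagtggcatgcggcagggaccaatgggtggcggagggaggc
The capitals are the CArG box, the SRF motif, at 95 to 86 bases before the listed transcripts of ACTA1 and 70 to 61 bases before those of HPX. In IGFBP4 they are the palindrome of STAT6, TTC and GAA with 4 bases between them, 155 to 146 bases before the listed transcripts. Windows from 250 bases before to 50 after the start that RefSeq gives, which lies further downstream in these 3 genes, were searched on both strands for 43 of the 62 called genes. The palindrome with 4 bases between was in 1 of 17 higher genes, 0 of 26 lower genes and 4.61% of 10787 tested genes, and in 6.37% of all 27305 windows. The form with 3 bases between, which other STAT proteins prefer, was in 1 of 17 higher genes (CD14), 0 of 26 lower genes, 6.40% of tested genes and 7.88% of all windows. The CArG box was in 2 of 17 higher genes, 0 of 26 lower genes, 0.992% of tested genes and 1.29% of all windows. TAGLN and MYL9 were not among the 43 genes searched. The MTHFD2 window held none of the 3 motifs, which says only that these letters are not in this window. The study reports a putative STAT6 site in the proximal MTHFD2 promoter and lower reporter activity when that site was mutated. It also reports STAT6 binding at this promoter by chromatin immunoprecipitation.

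The 35 lower genes held STAT6 and genes of varied roles, among them the enzymes HSDL2 and METAP2, the GTPase RAB10 and the chromatin protein MORF4L1. HSDL2 (chr9:112379909-112472405), a peroxisomal hydroxysteroid dehydrogenase-like protein, had 14.2 and 33.8 CPM in control si 1 and 2 and 3.53 and 12.8 CPM in STAT6 si 1 and 2. Both STAT6 si libraries lay below both controls. The log2 fold change was -1.65 (standard error 0.23, edgeR, adjusted p = 1.9e-09), with -1.98 within number 1, -1.40 within number 2 and -1.42 with the offsets. METAP2 (chr12:95474046-95515837), which removes the initiator methionine from new proteins, had 11.5 and 53.1 CPM in the controls and 4.78 and 23.9 CPM in the STAT6 si libraries. The difference between the numbers exceeded that between the siRNAs, but the pairs agreed, at -1.25 and -1.15 on the log2 scale (fitted -1.20, standard error 0.22, edgeR, adjusted p = 1.0e-04). RAB10 (chr2:26033860-26137454), a small GTPase of vesicle transport, had 41.9 and 83.5 CPM in the controls and 17.7 and 46.8 CPM in the STAT6 si libraries (log2 fold change -1.03, standard error 0.21, edgeR, adjusted p = 0.00113). MORF4L1 (chr15:78872781-78897739), a chromatin reader of methylated histone H3, had 123 and 187 CPM in the controls and 45.3 and 134 CPM in the STAT6 si libraries. Its difference was -1.43 within number 1 and -0.48 within number 2 (fitted -0.95, edgeR, adjusted p = 0.00734).

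CA12 (chr15:63323531-63382110), a membrane carbonic anhydrase, had 45.6 and 54.4 CPM in the controls and 20.4 and 40.7 CPM in the STAT6 si libraries, all below the controls. Its difference was -1.16 within number 1 and -0.42 within number 2 (fitted -0.77, edgeR, adjusted p = 0.0467). It was the only called gene of 25 hypoxia response genes tested, of which 6 were higher and 7 lower within both numbers. ANXA13 (chr8:123680794-123737426), a membrane-binding annexin, had 13.9 and 15.1 CPM in the controls and 5.58 and 9.61 CPM in the STAT6 si libraries (log2 fold change -0.95, edgeR, adjusted p = 0.0114), with no overlap. GMFB, JKAMP, NR1D2, HECA and TIA1 fell by 1.06, 1.03, 0.96, 0.93 and 0.91 on the log2 scale, and in each the groups overlapped across the numbers. NR1D2, the circadian repressor REV-ERB beta, had 8.20 and 31.6 CPM in the controls and 4.85 and 14.9 CPM in the STAT6 si libraries. Other lower genes were named after their values were seen. DUSP6 and DUSP10, phosphatases that switch off MAP kinases, had log2 fold changes of -0.90 and -0.89 (edgeR, adjusted p = 0.0106 and 0.0279). The cytokine gene IL18 had 17.7 and 32.6 CPM in the controls and 6.17 and 27.0 CPM in the STAT6 si libraries (log2 fold change -0.81, edgeR, adjusted p = 0.0443). HMGB2, a chromatin protein, had 45.1 and 72.0 CPM in the controls and 20.6 and 51.0 CPM in the STAT6 si libraries (log2 fold change -0.80, edgeR, adjusted p = 0.0333).

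Some of the called loci share bases with a neighbour, and for these the estimate per transcript decides which gene receives the reads. Of the 62 genes, 22 overlap another tested gene, 12 on the same strand and 12 on the opposite strand, and 5 are readthrough loci named for 2 genes. The same shares over all tested genes were not counted, so whether the called genes stand out in this is not known. COMMD3-BMI1 (chr10:22316383-22331485) had 92 and 198 counts in the controls and 2 and 160 in the STAT6 si libraries. Its log2 difference was -4.41 within number 1 and -0.41 within number 2, so number 1 carried most of the call. The call was lost with DESeq2 (-2.53, adjusted p = 0.839) and with the robust option of edgeR (adjusted p = 0.631), and its adjusted p ran from 8.7e-04 to 1.00 over 10 alternatives. DESeq2 lost the call of 30 of the 34 called genes named by rule, COMMD3-BMI1 among them, and kept 4. The robust option lost 2 of the 34. COMMD3 and BMI1 on their own had -0.22 and 0.08. P2RY11 (chr19:10111521-10115388), a receptor for ATP, had 4.41 and 19.5 CPM in the controls and 2.79 and 4.79 CPM in the STAT6 si libraries. Its difference was -0.64 within number 1 and -2.004 within number 2 (fitted -1.505, edgeR, adjusted p = 1.4e-05), and the readthrough PPAN-P2RY11 over the same bases had 0.00. ABHD14A-ACY1, named after its values were seen, had a log2 fold change of -2.61 beside 0.56 for ABHD14A and 0.75 for ACY1. RASA4B and C15orf38-AP3S2 were called higher, and their partners RASA4, AP3S2 and ARPIN had 0.14, 0.16 and 0.14. PIGY and PYURF, both read from 1 transcript, had the same values, 24.99 and 25.5 CPM in the controls and 9.85 and 17.6 CPM in the STAT6 si libraries, and count as 1 locus.

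MTHFD2 (chr2:74198563-74215297) had 154 and 457 CPM in control si 1 and 2 and 80.5 and 334 CPM in STAT6 si 1 and 2. Each STAT6 si library lay below the control of its own number, but STAT6 si 2 lay above control si 1, so the groups overlapped. The log2 fold change was -0.69 (standard error 0.22, edgeR, adjusted p = 0.166), with -0.93 within number 1 and -0.45 within number 2, and it did not pass the test. With the offsets the log2 fold change was -0.47 (standard error 0.11, edgeR, adjusted p = 0.0051), and over 11 alternatives the adjusted p ran from 0.0051 to 1.00. Its coding transcript NM_006636 had 2434 and 9484 expected counts in the controls and 947 and 7251 in the STAT6 si libraries. The noncoding NR_027405 had 283 and 805 in the controls and 148 and 834 in the STAT6 si libraries, and its decrease stood almost wholly in number 1. The study itself reports lower MTHFD2 after STAT6 siRNA in its RNA-seq. It reports the same by qRT-PCR and, for the protein, by western blot, in Hep3B and SNU475 cells.

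Folate genes went both ways. Of 32 tested, MTHFD2 among them, 11 were higher and 11 lower within both numbers, none was called (edgeR, 4 at an unadjusted p below 0.05, and 0 called by DESeq2 or limma-voom), and the median log2 fold change was -0.04, the same as for all genes. SLC19A1 (chr21:45514715-45542471), the reduced folate carrier, had 134 and 81.8 CPM in the controls and 207 and 87.8 CPM in the STAT6 si libraries. Its log2 difference was 0.62 within number 1 and 0.10 within number 2 (fitted 0.36, edgeR, adjusted p = 0.521), and 0.08 with the offsets. TYMS, thymidylate synthase, had a difference of -0.39 within number 1 and 0.17 within number 2. MTR, methionine synthase, had 16.5 and 37.1 CPM in the controls and 22.7 and 42.2 CPM in the STAT6 si libraries (log2 fold change 0.31, edgeR, adjusted p = 0.561), and with the offsets its value was 0.45 and it passed the test. The 22 purine synthesis genes, which use the folate units, had a median of 0.06 with 7 higher and 5 lower within both numbers. The 16 hexosamine synthesis genes had a median of -0.10 that was -0.26 within number 1 and 0.07 within number 2. None of either list was called (edgeR, 1 and 2 at an unadjusted p below 0.05, and 0 by DESeq2 or limma-voom). Of 68 tested genes that the study lists as shared by SOX4 and STAT6, chosen in part on these libraries, 22 were higher and 21 lower within both numbers, with a median of 0.03 and none called (edgeR, 5 at an unadjusted p below 0.05, and 0 by DESeq2 or limma-voom).

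None of the other STAT genes described here passed the test (edgeR, 0 at an unadjusted p below 0.05, and 0 by DESeq2 or limma-voom). STAT3 had 122 and 129 CPM in the controls and 116 and 135 CPM in the STAT6 si libraries, and STAT2 and STAT5B had log2 fold changes of 0.08 and -0.07. STAT5A had 26.8 and 15.3 CPM in the controls and 36.3 and 19.7 CPM in the STAT6 si libraries (log2 fold change 0.40, edgeR, adjusted p = 0.458). STAT4 was under 1 CPM in every library. IL4R, the IL-4 receptor chain, had 82.4 and 57.6 CPM in the controls and 103 and 64.2 CPM in the STAT6 si libraries, a log2 fold change of 0.24. Of 24 genes of IL-4 receptor signalling other than STAT6, 9 were higher and 7 lower within both numbers and none was called (edgeR, 1 at an unadjusted p below 0.05, and 0 by DESeq2 or limma-voom). With the offsets, the receptor kinase JAK1 was called higher at 0.43 and the adaptor IRS1 lower at -0.37. Of 18 tested genes known to respond to IL-4, 7 were higher and 8 lower, with a median of -0.07 and none called (edgeR, 6 at an unadjusted p below 0.05, with 0 by DESeq2 and 1, KLF4, by limma-voom). With the offsets, TGM2, a transglutaminase induced by IL-4 in many cells, was called higher at 0.57, and CTGF, a matrix-associated growth factor, lower at -0.42. TGM2 had 46.6 and 32.0 CPM in the controls and 80.1 and 46.3 CPM in the STAT6 si libraries.

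Among lists with at least 10 genes tested, secreted hepatocyte proteins had the highest median. Of 48 members 43 were listed in the table and 39 passed the filter on low counts. Within both numbers 26 of the 39 were higher and 2 were lower, against 29.3% and 32.7% of all genes. The median log2 fold change was 0.32, with 0.27 within number 1, 0.33 within number 2 and 0.33 with the offsets, and it lay between 0.29 and 0.41 over 8 alternatives. HPX was the 1 gene called of the 16 at an unadjusted p below 0.05 (edgeR, 1495 of 13554 for all genes). With the offsets 11 were called higher and 0 lower, against 1.07% and 1.72% of all genes. The list had a median GC content of 52.99%, against 49.6% for all genes.

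SERPINA1, alpha-1-antitrypsin, had 3419 and 2156 CPM in the controls and 6263 and 2954 CPM in the STAT6 si libraries (log2 fold change 0.66, edgeR, adjusted p = 0.312). APOB, the backbone of very low-density lipoprotein, had 411 and 2046 CPM in the controls and 838 and 2328 CPM in the STAT6 si libraries. TTR, transthyretin, had 52.1 and 47.9 CPM in the controls and 86.6 and 58.5 CPM in the STAT6 si libraries, and its groups did not overlap. All 3 were higher in each pair and were called only with the offsets, at 0.62, 0.73 and 0.63. ORM1 and ORM2, near-identical orosomucoid genes whose reads can be split between them, were also among the 11. Albumin did not follow the list: ALB had 7503 and 9566 CPM in the controls and 5095 and 12029 CPM in the STAT6 si libraries, a difference of -0.56 within number 1 and 0.33 within number 2. AFP, alpha-fetoprotein, had -0.26 and 0.27, and AHSG, fetuin-A, had 2203 and 1385 CPM in the controls and 1815 and 987 CPM in the STAT6 si libraries, lower in both pairs. The master hepatocyte factor HNF4A had 502 and 299.9 CPM in the controls and 584 and 334 CPM in the STAT6 si libraries, a log2 fold change of 0.19 that did not pass the test. Of 24 hepatocyte transcription factor genes tested, 6 were higher and 8 lower within both numbers, with a median of -0.04. None of these factors was called (edgeR, 3 at an unadjusted p below 0.05, and 0 by DESeq2 or limma-voom). With the offsets ONECUT2, NR0B2 and NFIB were called lower and none higher. Transcripts of the liver markers ALB, AFP, TTR, SERPINA1 and HNF4A were thus present in all 4 libraries. In bulk RNA, fewer cells that make a transcript and less of it per cell cannot be told apart.

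**Figure D4:**
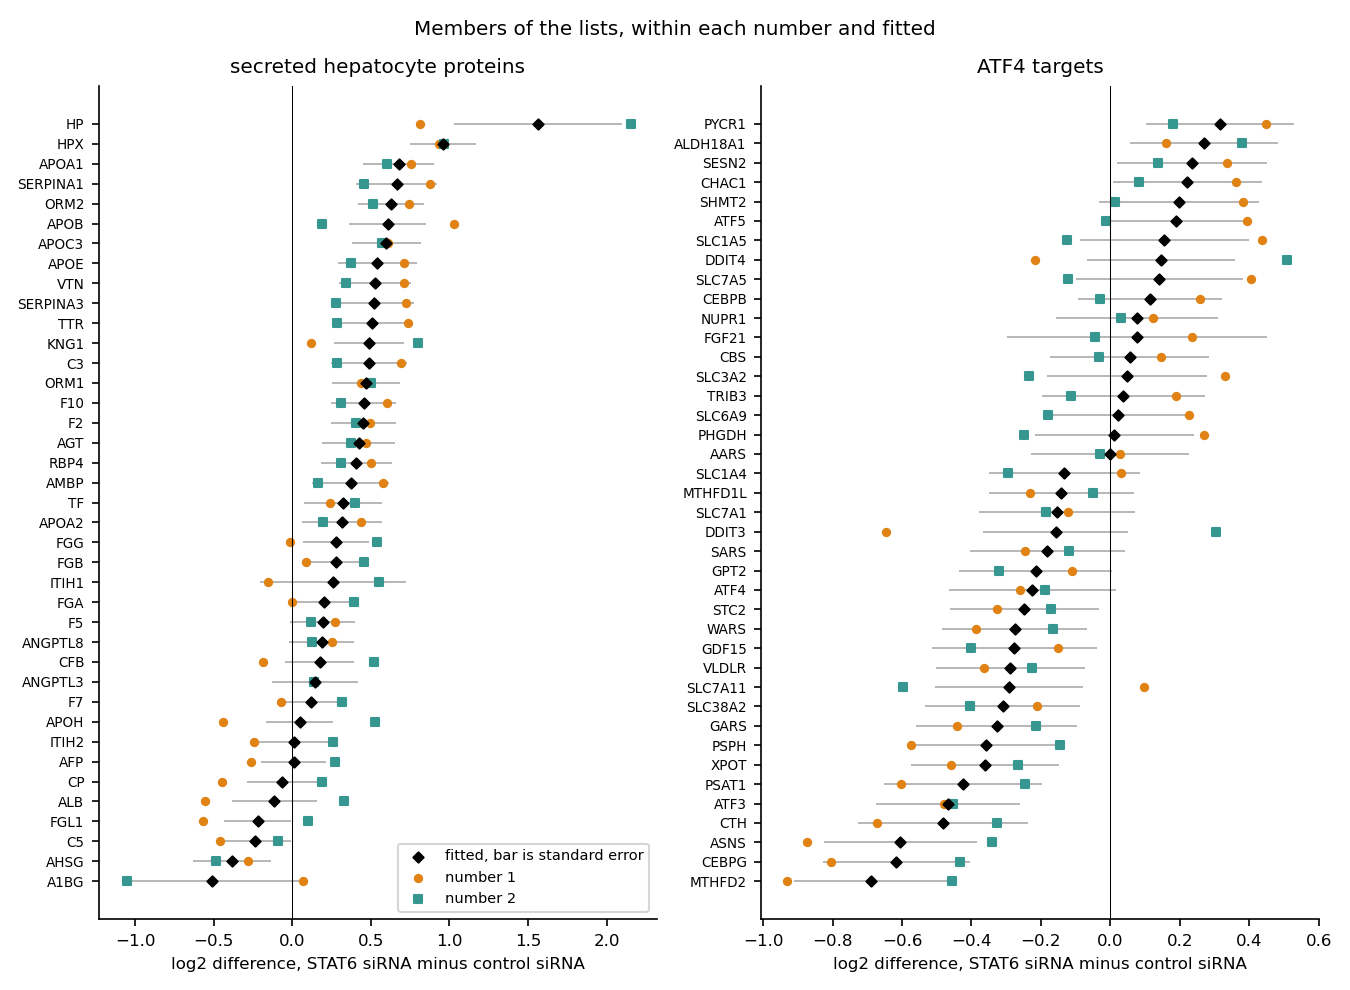
Log2 difference (STAT6 siRNA minus control siRNA, horizontal axis) of each tested secreted hepatocyte gene (left) and ATF4 target gene (right): circles within number 1, squares within number 2, and black diamonds fitted over both with the standard error as a bar. On the left 26 of 39 genes are above 0 in both numbers, and on the right 19 of 40 are below 0 in both, MTHFD2 lowest.

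Genes of the ATF4 programme, which answers amino acid shortage and includes MTHFD2, had a median below that of all genes. Of 40 tested, 19 (47.5%) were lower and 6 (15%) higher within both numbers, against 32.7% and 29.3% of all genes. The fitted value was below 0 in 23 of the 40, and in 7376 of all 13554 genes. In the fit with the offsets it was below 0 in 35 of the 40, and in 6659 of all genes. The median of the 40 genes was -0.15 (-0.12 within number 1, -0.17 within number 2, -0.15 with the offsets). None was called (edgeR, 5 at an unadjusted p below 0.05, and 0 by DESeq2 or limma-voom). With the offsets 5 were called lower, ATF3, ASNS, CEBPG, GDF15 and MTHFD2, and 1 higher, ALDH18A1, against 1.72% and 1.07% of all genes. ASNS, asparagine synthetase, had 241 and 313 CPM in the controls and 132 and 247 CPM in the STAT6 si libraries. CEBPG, a bZIP partner of ATF4, had 93.6 and 157 CPM in the controls and 53.5 and 116 CPM in the STAT6 si libraries. ATF4 itself had 1277 and 1101 CPM in the controls and 1066 and 965 CPM in the STAT6 si libraries, lower in each pair at a log2 fold change of -0.22 that did not pass the test.

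Several other lists had many more genes of 1 direction than of the other within both numbers. The following 4, chosen as examples after their values were seen, had no gene called (edgeR, 2, 6, 1 and 13 at an unadjusted p below 0.05 in the order given, and 0 by DESeq2 or limma-voom). The 84 cytosolic ribosomal protein genes had 55 higher and 8 lower within both numbers, with a median of 0.16. The 34 cholesterol and fatty acid synthesis genes had 18 higher and 4 lower, with a median of 0.15. The 13 genes of MHC class I presentation had 11 higher and 0 lower, with a median of 0.23 that was 0.03 with the offsets, and their median GC content was 57.7%. The 210 zinc finger genes of chromosome 19, with a median GC content of 42.8%, had 90 lower and 26 higher, and their median of -0.16 was -0.02 with the offsets. Further lists of this kind with no gene called included respiratory chain subunits (38 higher, 9 lower), mitochondrial ribosomal proteins (34 and 12), glycolysis (11 and 2) and interferon response (10 and 2). Their fitted medians were 0.07, -0.01, 0.20 and 0.17 in that order. The median of the mitochondrial ribosomal proteins was -0.12 within number 1 and 0.09 within number 2, and the sign of the fitted median changed in 4 of 8 alternatives. Chaperonin and heat shock proteins (4 higher, 13 lower) and DNA methylation and polycomb genes (1 and 7) had more lower genes. In these 6 lists edgeR had 3, 8, 2, 1, 1 and 1 genes at an unadjusted p below 0.05, and DESeq2 and limma-voom called 0. The acute phase and NF-kB list differed between the numbers, with a median of -0.10 within number 1 and 0.38 within number 2. Of 17 genes of the IGF axis, IGFBP4 was the 1 called, while IGFBP3, another binding protein, had 13.96 and 16.5 CPM in the controls and 7.05 and 10.8 CPM in the STAT6 si libraries (log2 fold change -0.78, edgeR, adjusted p = 0.0749) and was called lower with the offsets.

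**Figure D5:**
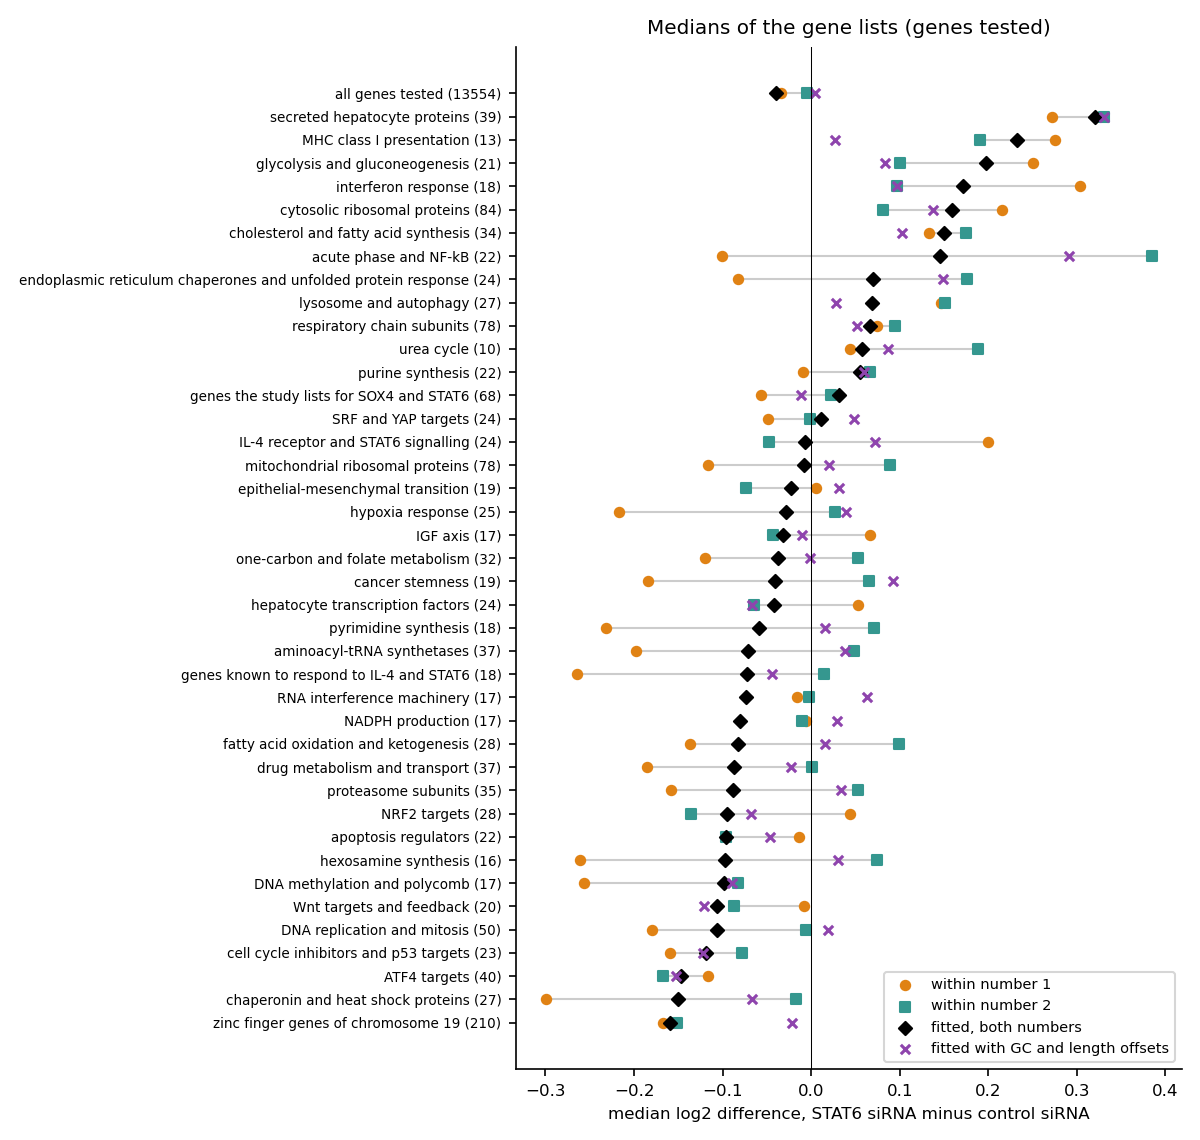
Median log2 difference (STAT6 siRNA minus control siRNA, horizontal axis) of each gene list, with the number of genes tested in parentheses: circles within number 1, squares within number 2, diamonds fitted over both, crosses fitted with the GC and length offsets. Of the lists drawn, secreted hepatocyte proteins lie highest at 0.32 and keep 0.33 with the offsets, while MHC class I genes move from 0.23 to 0.03.

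Few markers of other cells were detected. Of 9 fibroblast and stellate markers 4 were listed, and their summed level was 8.399 and 7.99 CPM in the controls and 14.02 and 10.3 CPM in the STAT6 si libraries, higher in each pair. COL1A1 and PDGFRB, the 2 tested, had log2 fold changes of 0.51 and 0.81 (edgeR, adjusted p = 0.0885 for PDGFRB) and were not called. Of 8 endothelial markers 1 was listed, at 0.0987 to 0.272 CPM. Of 10 leukocyte markers CD14, CD68 and LYZ were listed, with a sum of 71.0 to 85.3 CPM over the libraries, and PTPRC, the pan-leukocyte antigen, was not. The part of these markers in the contractile gene levels was not tested.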

How the data were processed

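RNA-seq of Hep3B cells was analysed in 2 control si and 2 STAT6 si libraries. The authors deposited expected counts, which are read numbers estimated for each RefSeq transcript and are not normalized. The submitters' processing notes name hg38, STAR and Partek, without versions, and the quantifier and the strand setting are not given in the sources used here. The table holds 30650 transcripts, of which the smallest sum over the 4 libraries was 10, so rarer transcripts had been left out earlier. Of the 14953 gene names, 19 were calendar dates left by spreadsheet software. Their genes were found from the RefSeq accession of each transcript or, failing that, of another transcript with that date on the same chromosome. The stop position in the table lies 1 past the last base, and ends are given here as the last base. The planned test was for counts. Since expected counts need not be whole, they were summed for each gene, then rounded, and the planned test was kept. Near-identical and overlapping genes can share reads in such estimates.

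edgeR 4.0.16 in R 4.3.3 was used for testing (filterByExpr, TMM, then glmQLFit and glmQLFTest) on the model of library number plus siRNA, with Benjamini-Hochberg adjustment over 13554 genes and a threshold of 0.05. Differences between single libraries are log2 values with a prior count of 2. Across genes, the number 2 minus number 1 difference of the control si correlated with that of the STAT6 si (Pearson 0.873). The labels give the numbers but do not say that a number marks a shared culture. The offsets for GC content and length were smooths fitted with mgcv 1.9.3, with transcript values taken from GENCODE release 29, and covered 98.9% of genes tested. The alternatives also included limma 3.58.1 (voom), DESeq2 1.42.0, other size factors, filters and glmQLFit options, and glmTreat. The scripts were tested on simulated data.

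Named were STAT6, the folate genes the study names, the STAT family, the 15 called genes with the largest change in each direction that averaged 100 or more counts, up to 4 called genes in each list, and cell type markers. Other genes are marked as named after their values were seen, or are list members given as examples after their values were seen. Some genes that this rule names are not reported here. The members and lists were chosen with earlier results of these data known.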

Additional observations from a re-analysis of the deposited data

How the results depend on the processing

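The number of genes called differed between settings, and the cause was not tested. It was 5 with DESeq2 (3 higher, 2 lower, 877 at an unadjusted p below 0.05), 96 with limma-voom, 8 against a minimum absolute log2 fold change of 0.5, 2 against 1 (glmTreat), and 378 with the replicate block and offsets for GC content and length. With no replicate block edgeR called 0 genes, with 14 at an unadjusted p below 0.05, and STAT6 then had a log2 fold change of -2.22 (adjusted p = 1.00). The common dispersion was 0.0169 with the pairing and 0.243 without it. Median-of-ratios factors gave 66 calls, 49 of them shared with the 62, and upper-quartile factors 54, with 53 shared. MTHFD2 passed the test only with the offsets (-0.47, adjusted p = 0.0051). Leaving out each number gave -2.37 to -2.09 for STAT6 and -0.93 to -0.45 for MTHFD2, as values with no test. All 62 called genes kept their direction in every fit that tested them. STAT3, which was not called, changed sign to 0.0875 with DESeq2, 0.0875 with median-of-ratios factors, 0.0025 with no replicate block and 0.0709 with the offsets, and STAT5B to 0.0149 with DESeq2 and 0.0148 with median-of-ratios factors. The 2 libraries per group and the 1 residual degree of freedom limit the test, and genes with few counts, such as TIMP3, are limited by depth.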
